A study of Mus musculus with 17 samples.

Results

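The genes described here are 10 genes of the NRF2 antioxidant response in mouse small-intestinal organoids: the transcription factor gene Nfe2l2 and 9 genes known as its targets, Cbr3, Akr1b8, Nqo1, Gclc, Gclm, Slc7a11, Srxn1, Txnrd1 and Hmox1. They were taken by symbol from the count tables of each library, and all 10 were found among 26422 genes listed. The set was put together with results of the KPT-330 comparison known, so the KPT-330 values of these 10 genes are given as a description, without a test. Tests are given for 78 other genes of the pathway and for the untreated time course. Those genes and tests were also chosen with earlier results of these data known, so they are not independent of them.

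NRF2, the protein made from Nfe2l2, is held at a low level by KEAP1, which binds it and hands it to a CUL3 ubiquitin ligase. Electrophiles and oxidants modify KEAP1, NRF2 then accumulates in the nucleus, pairs with a small MAF protein and binds antioxidant response elements, while BACH1 competes for the same elements. The genes it turns on make and recycle glutathione, reduce thioredoxin and peroxiredoxins, supply NADPH and detoxify quinones, aldehydes and other carbonyls. In the gut these enzymes are known for handling dietary electrophiles in absorptive cells. XPO1 exports proteins that carry nuclear export signals, and KPT-330 (selinexor) blocks it. RNA alone was measured here, so neither the amount nor the place of the NRF2 protein is known.

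Single-cell RNA was counted with unique molecular identifiers (UMIs) by Seq-Well S3 in 17 libraries, of which 2 came from ENR+CV organoids at day 0, 7 from ENR+CD controls and 8 from ENR+CD organoids given 160 nM KPT-330. ENR+CV medium (EGF, Noggin and R-spondin 1 with CHIR99021 and valproic acid) enriches for stem cells, and ENR+CD medium, with DAPT in place of valproic acid, drives differentiation towards Paneth cells. Sampling was at days 0.25, 1, 2, 3, 4 and 6, with 2 libraries per condition at day 6, 2 KPT-330 libraries at day 3 and otherwise 1 library per condition and day. All organoids were grown from crypts of female and male C57BL/6 mice, wild type and 1 to 6 months old, many organoids were pooled in each sample, and the medium of every group held N-acetyl-cysteine, itself an antioxidant. The study names single-cell sequencing as the exception to its independent biological replication, and nothing says that libraries came from separate cultures or animals. The p-values therefore measure the spread between these libraries, with days standing in for replicates, and that spread may be technical.

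The 19877 cells kept by the authors were used, 531 to 1547 per library with 3458887 to 12433109 UMIs per library, and 14 cell barcodes occurred in more than 1 library. Epithelial genes summed to 34.2 to 46.7 UMIs per 10000 in every library, while immune genes reached at most 0.0672, mesenchymal genes 0.0387 and endothelial genes 0.0265. Xpo1, which is known to rise when its protein is inhibited, was higher with KPT-330 at 6 of 6 days, by a median of 1.48 on the log2 scale. Levels below are UMIs per 10000 UMIs of a library, scaled with the TMM factors of edgeR. Median UMIs per cell ranged from 2701 to 8463 in control and from 2676 to 7146.5 in KPT-330 libraries, and the median mitochondrial share from 7.37% to 14.5% and from 6.31% to 16.5%. The KPT-330 minus control difference of the median gene was -0.239 on the log2 scale when libraries were scaled to total UMIs, -0.013 with TMM and -0.012 with the size factors of DESeq2, so small differences depend on the scaling and changes are reported relative to the TMM centre.

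In the GENCODE annotation of mm10, the carbonyl reductase gene Cbr3 lies at chr16:93683215-93690990 and the aldo-keto reductase gene Akr1b8 at chr6:34354119-34368463. Nqo1, which encodes a quinone reductase, lies at chr8:107388225-107403206, and Hmox1, which encodes the haem-degrading haem oxygenase 1, at chr8:75093621-75100589. The subunit genes of the glutamate-cysteine ligase that starts glutathione synthesis are Gclc at chr9:77754535-77794485 for the catalytic and Gclm at chr3:122245557-122270732 for the modifier subunit. Slc7a11, the cystine importer, lies at chr3:49892526-50443614, Srxn1, which encodes sulfiredoxin, at chr2:152105516-152111376, Txnrd1, which encodes cytosolic thioredoxin reductase, at chr10:82833951-82897712, and Nfe2l2 at chr2:75675513-75704641. Gclm, Txnrd1, Slc7a11 and Nfe2l2 overlap other annotated genes, and the strand used in counting is not stated, so reads of overlapping genes could not be told apart.

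Promoters are shown for the genes with the largest KPT-330 differences, Cbr3 and Akr1b8, and for Srxn1 and Gclm, whose windows hold matches. An antioxidant response element is the DNA letter code that NRF2 binds with a small MAF protein, and binding was not measured here. Each is 300 bases from RefSeq on GRCm38.p6, from 250 bases before to 50 after the annotated start, written 5′ to 3′ on the gene's strand. Capitals mark matches to the core element TGACNNNGC or to the MAF-type element TGANTCAGC, searched on both strands.
Cbr3: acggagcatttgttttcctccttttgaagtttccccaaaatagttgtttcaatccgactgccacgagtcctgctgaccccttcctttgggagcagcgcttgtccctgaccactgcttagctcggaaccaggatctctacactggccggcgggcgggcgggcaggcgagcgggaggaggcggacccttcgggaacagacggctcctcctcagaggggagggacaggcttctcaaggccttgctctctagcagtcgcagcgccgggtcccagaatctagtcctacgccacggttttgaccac
Akr1b8: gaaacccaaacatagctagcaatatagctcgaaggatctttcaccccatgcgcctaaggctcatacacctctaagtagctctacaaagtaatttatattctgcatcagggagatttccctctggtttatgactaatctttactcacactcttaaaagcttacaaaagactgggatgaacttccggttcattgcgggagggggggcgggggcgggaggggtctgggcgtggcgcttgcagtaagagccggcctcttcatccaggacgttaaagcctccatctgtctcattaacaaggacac
Srxn1: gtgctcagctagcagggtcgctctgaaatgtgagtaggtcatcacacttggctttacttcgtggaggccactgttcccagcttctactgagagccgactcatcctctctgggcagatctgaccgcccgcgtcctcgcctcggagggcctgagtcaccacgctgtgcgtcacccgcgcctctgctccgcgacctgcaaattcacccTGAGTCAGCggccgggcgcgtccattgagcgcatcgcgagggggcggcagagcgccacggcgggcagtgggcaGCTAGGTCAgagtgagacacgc
Gclm: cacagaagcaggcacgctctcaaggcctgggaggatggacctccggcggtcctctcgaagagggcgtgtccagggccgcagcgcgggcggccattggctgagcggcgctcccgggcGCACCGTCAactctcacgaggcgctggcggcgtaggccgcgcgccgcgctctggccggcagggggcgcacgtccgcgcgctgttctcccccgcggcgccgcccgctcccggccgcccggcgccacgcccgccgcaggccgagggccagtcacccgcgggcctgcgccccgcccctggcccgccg
The windows are chr16:93682969-93683268 (plus strand) for Cbr3, chr6:34353896-34354195 (plus) for Akr1b8, chr2:152105274-152105573 (plus) for Srxn1 and chr3:122245307-122245606 (plus) for Gclm.

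RefSeq promoters were matched for 8 of the 10 genes, and Gclc and Hmox1 had no entry. Srxn1 held TGAGTCAGC beginning 45 bases before the start, a match to TGANTCAGC, and the reverse-strand core match GCTAGGTCA after the start. Gclm held the reverse-strand core match GCACCGTCA beginning 134 bases before the start, and Nfe2l2 held TGACTCCGC beginning 240 bases before it. Of the 3 Txnrd1 start windows, 1 held GCTTTGTCA, beginning 92 bases before the start. Windows of Cbr3, Akr1b8, Nqo1 and Slc7a11 held neither element, which says only that these letters are not in these 300 bases. For comparison, 12.4% of 32851 mouse promoter windows held TGACNNNGC, 1.19% held TGANTCAGC and 13% held either.

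In untreated organoids all 10 genes had their highest mean level in enterocyte-like cells, the absorptive cells, and their next highest in early enterocyte-like cells. The means cover different days, such as days 0 to 2 for early enterocyte-like and days 2 to 6 for Paneth-like cells. Differences between types therefore also carry differences between days. The 10 genes and the pathway genes took no part in clustering the cells, which were named from markers such as Apoa1 and Sis. Cbr3 reached 6.71 ± 2.73 UMIs per 10000 in enterocyte-like cells (SD, n = 9 libraries) and 4.22 ± 0.75 in early enterocyte-like cells (n = 5), against 0.58 ± 0.46 in stem II-like (n = 8) and 0.028 ± 0.024 in Paneth-like cells (n = 5). Akr1b8 had the same steep profile, with 4.40 ± 3.35 in enterocyte-like, 2.68 ± 0.93 in early enterocyte-like and 0.16 ± 0.11 in cells of the next type, stem III-like (n = 9). Nqo1 was at 2.87 ± 1.17, 0.98 ± 0.33 and 0.13 ± 0.12 in the same 3 types. Srxn1 was at 4.58 ± 1.69 in enterocyte-like and 1.46 ± 0.55 in early enterocyte-like cells and at or below 0.43 in all remaining types.

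Txnrd1 and Nfe2l2 had flatter profiles. Txnrd1 was at 6.10 ± 1.00 in enterocyte-like, 3.92 ± 0.53 in early enterocyte-like and 3.50 ± 0.46 in stem III-like cells, while goblet-like cells had the lowest mean of 10 types, 2.11 ± 0.27. Nfe2l2 itself ran from 4.09 ± 0.65 in enterocyte-like cells through 3.64 ± 0.61 in early enterocyte-like and 1.85 ± 0.31 in stem III-like to 1.09 ± 0.051 in early Paneth-like cells (n = 3). The highest type mean was 2.89 times the lowest for Txnrd1 and 3.75 times for Nfe2l2; for Cbr3 and Akr1b8 no ratio is given, since the lowest types rested on few UMIs. Gclm (3.65 ± 0.93), Gclc (2.62 ± 2.09), Slc7a11 (0.59 ± 0.50) and Hmox1 (0.15 ± 0.11) also had their top mean in enterocyte-like cells. With the cells of all libraries summed by cluster, KPT-330 included, Slc7a11 was instead highest in a stem III-like cluster (0.395). It stood at 0.258 and 0.256 in the enterocyte-like clusters led by Apoa1 and Fabp1. For Gclc, Slc7a11 and Hmox1 no pair of neighbours in the order of types lay further apart than their spread, and for Cbr3 and Akr1b8 the gap that did was the one below early enterocyte-like cells.

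**Figure D1:**
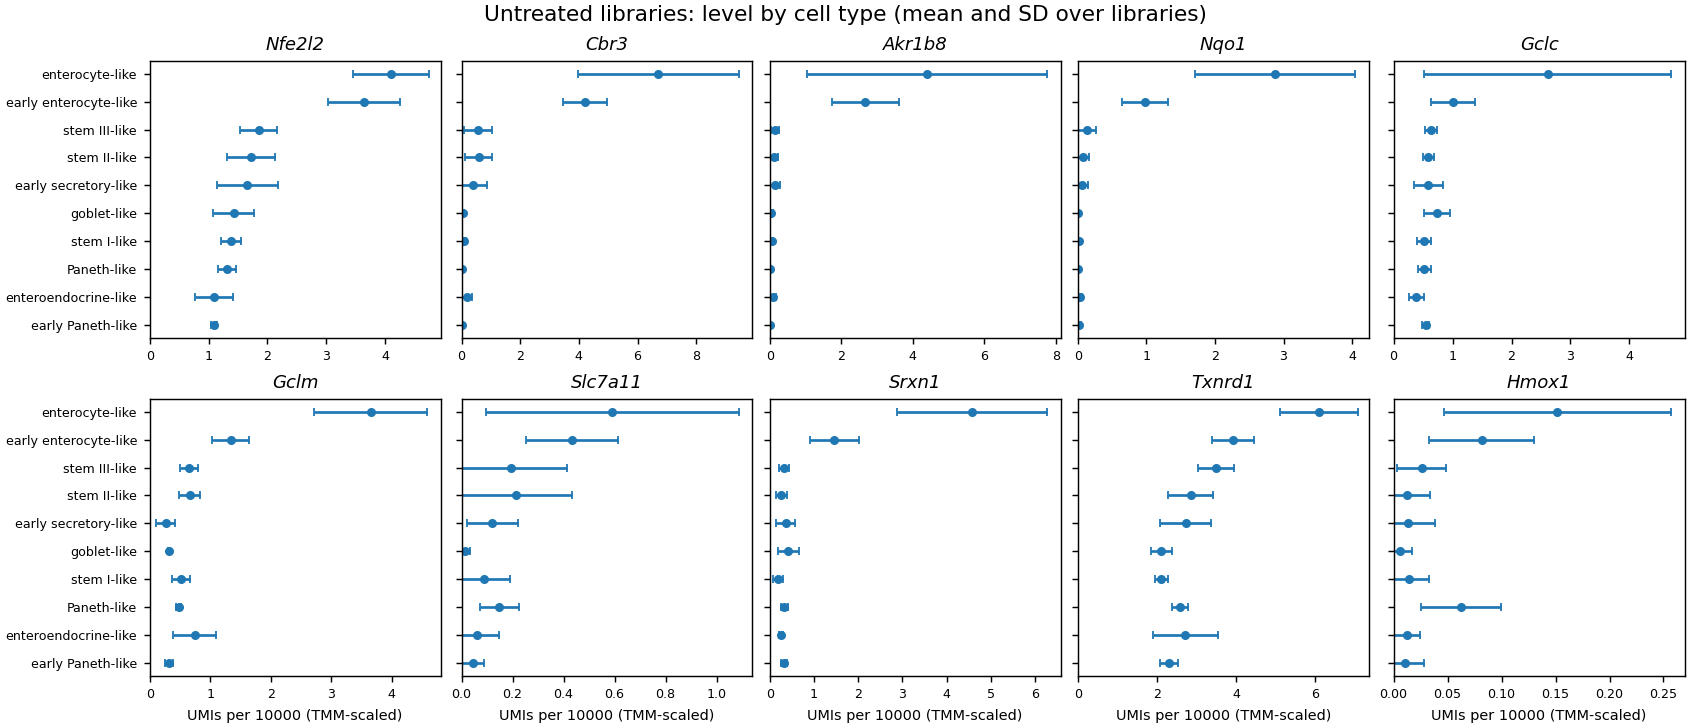
Level of each gene (x axis, UMIs per 10000, TMM-scaled) in 10 cell types (y axis) of the untreated libraries. Points are means and bars SD over libraries, cut off at 0. Every gene has its top mean in enterocyte-like cells, and Nfe2l2 and Txnrd1 have the shallowest profiles. The days averaged differ between types.

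Enterocyte-like and early enterocyte-like cells made up 11.4% of untreated cells and held 16.6% of their UMIs, but 81.4% of the Akr1b8, 79.7% of the Nqo1, 67.3% of the Cbr3 and 66.9% of the Srxn1 UMIs. Their part was smaller for Gclm (43.0%), Hmox1 (40.2%), Gclc (35.1%), Nfe2l2 (28.8%), Slc7a11 (26.0%) and Txnrd1 (23.2%). The share of these cells differed between conditions. With KPT-330 it was 13.25% at day 0.25 and 26.8% at day 1, against 11.4% and 21.5% in control. At day 2 it was 38.3% with KPT-330 and 27.8% in control. At day 3 it was 30.02% and 31.2% against 10.2%, and at day 4 it was 12.4% against 3.81%. At day 6 it was 21.0% and 2.50% with KPT-330 and 7.10% and 2.02% in control. Over a whole library, therefore, a level reflects both the share of these cells and the RNA per cell, which cannot be told apart there. Levels are also given within and without these cells.

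Over all cells, the carbonyl reducing enzymes Cbr3 and Akr1b8 were lower with KPT-330, Nfe2l2 and Hmox1 were higher, and the remaining target genes lay near their control level or crossed it during the course. Cbr3 stood at 1.74, 1.55, 2.08, 0.549, 0.257 and 0.432 and 0.203 UMIs per 10000 in the control libraries of days 0.25, 1, 2, 3, 4 and 6, and at 0.401, 1.04, 0.994, 0.427 and 0.425, 0.105, and 0.142 and 0.0397 in the KPT-330 libraries. Every KPT-330 library was below every control library of its day. The fitted difference was -1.18 ± 0.25 on the log2 scale (SE, 15 libraries).

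Akr1b8 stood at 0.625, 0.578, 1.19, 0.217, 0.105 and 0.205 and 0.0928 in control and at 0.310, 0.338, 0.288, 0.0948 and 0.0520, 0.0132, and 0.0411 and 0.0340 with KPT-330. Again the libraries of the 2 conditions did not overlap at any day, and the lowest value, at day 4, rested on 5 UMIs. The fitted difference was -1.56 ± 0.22, and day by day it ran from -0.78 to -2.99. Such a separation in the downward direction at all 6 days was seen for 8.06% of 12423 genes and in the upward direction for 7.02%. These shares are printed as background to genes that were chosen on this contrast.

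Nfe2l2 lay the other way. Controls stood at 2.49, 2.18, 1.93, 1.26, 1.29 and 1.54 and 1.33, and KPT-330 libraries at 3.35, 3.36, 3.13, 2.46 and 2.88, 1.72, and 1.70 and 1.53, with an overlap at day 6 alone. The fitted difference was 0.54 ± 0.11, and it was 0.28 when libraries were scaled to total UMIs. Hmox1 was sparse, with 516 UMIs in all 17 libraries, and stood at 0.0355, 0.0204, 0.0417, 0.0168, 0.0345 and 0.0443 and 0.0696 in control and at 0.0883, 0.0363, 0.0512, 0.0448 and 0.0487, 0.0527, and 0.0601 and 0.0907 with KPT-330. Its fitted difference was 0.78 ± 0.20, and the libraries overlapped at day 6 alone.

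Both glutamate-cysteine ligase genes and the cystine importer, which together set glutathione synthesis, differed less. Gclc stood at 0.874, 0.558, 0.995, 0.526, 0.495 and 0.554 and 0.451 in control and at 0.473, 0.438, 0.616, 0.475 and 0.519, 0.440, and 0.595 and 0.357 with KPT-330, a fitted difference of -0.33 ± 0.13 with the mean lower at 6 of 6 days. Gclm (0.10 ± 0.16) and Slc7a11 (0.07 ± 0.18) differed in sign between days, Gclm being higher with KPT-330 at days 3 and 4 and Slc7a11 at days 3, 4 and, with TMM scaling only, 6. Srxn1, which repairs overoxidised peroxiredoxins, differed by 0.17 ± 0.20, Txnrd1 by 0.01 ± 0.10 and the quinone reductase Nqo1 by -0.03 ± 0.33. Nqo1 was lower with KPT-330 at day 0.25 (0.203 against 0.553) and higher at day 4 (0.290 against 0.0987). With total-UMI scaling, Gclm, Slc7a11, Srxn1 and Txnrd1 had negative differences of -0.17, -0.17, -0.11 and -0.25, so no direction is given for these 4 genes over all cells.

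**Figure D2:**
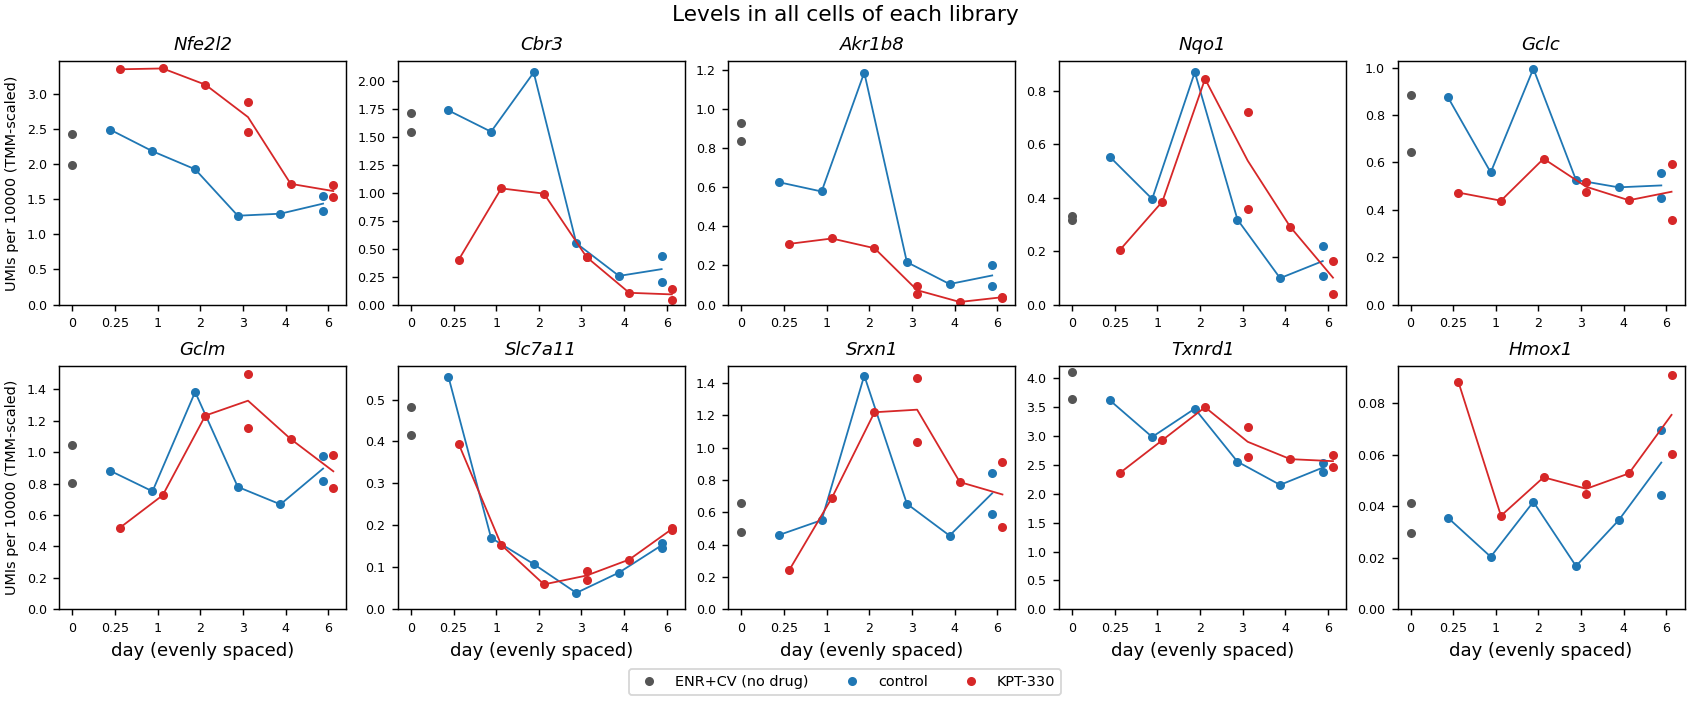
Level of each gene (y axis, UMIs per 10000, TMM-scaled) by day (x axis, evenly spaced) in all cells of each library. Points are libraries (grey, ENR+CV; blue, control; red, KPT-330) and lines join the means of each day. Cbr3 and Akr1b8 lie lower with KPT-330 at every day and Nfe2l2 mostly higher, while Nqo1, Gclm and Srxn1 cross.

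When enterocyte-like and early enterocyte-like cells were left out, Cbr3 differed by -1.37 ± 0.18, Akr1b8 by -0.80 ± 0.26 and Hmox1 by 1.36 ± 0.27. Nqo1, near 0 over all cells, differed by -0.85 ± 0.31 here, but by -0.29 ± 0.31 without day 0.25. Nfe2l2 differed by 0.24 ± 0.08, which was -0.0023 with total-UMI scaling, so its direction outside enterocyte-like cells depends on the scaling. Slc7a11 stood at 0.42 ± 0.20, Gclc at -0.17 ± 0.10, Gclm at -0.13 ± 0.10, Txnrd1 at -0.03 ± 0.09 and Srxn1 at -0.03 ± 0.13.

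Within enterocyte-like cells the fitted difference was negative for 9 of the 10 genes, the targets, and positive for Nfe2l2. The 10 genes were chosen with this comparison known, so that count is a description. The share of all genes with a negative difference was not computed, and the median difference of the 8670 genes tested was -0.002. All 6 days could be used, with 15 libraries of 21 to 526 such cells each, the fewest at day 0.25 (21 in control and 22 with KPT-330). In these cells Cbr3 stood at 11.3, 8.33, 8.72, 4.64, 4.02 and 4.51 and 3.14 UMIs per 10000 in the control libraries of days 0.25, 1, 2, 3, 4 and 6, and at 1.60, 3.98, 2.92, 1.49 and 1.20, 0.516, and 0.653 and 0.567 with KPT-330. No KPT-330 library reached the level of a control library of its day, and the fitted difference was -2.04 ± 0.18. At days with 1 library per condition such a separation is only the sign of 1 difference. The share of all genes separated in this way was not computed for these cells. Akr1b8 stood at 7.86, 3.23, 4.95, 1.80, 1.63 and 2.04 and 1.00 in control and at 3.39, 0.807, 0.769, 0.242 and 0.137, 0.0573, and 0.124 and 0.126 with KPT-330, a fitted difference of -2.76 ± 0.25 that rests on 2 to 8 UMIs in the KPT-330 libraries of days 4 and 6.

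Gclc stood at 7.99, 1.53, 2.80, 1.59, 1.99 and 2.099 and 1.49 in control and at 1.70, 0.599, 0.933, 0.765 and 0.887, 0.788, and 0.871 and 0.567 with KPT-330. It was lower at 6 of 6 days, with a fitted difference of -1.36 ± 0.13. Nqo1 stood at 5.45, 2.43, 3.90, 2.88, 1.94 and 2.40 and 2.01 in control and at 2.40, 1.82, 2.59, 1.31 and 2.07, 1.52, and 0.777 and 0.693 with KPT-330. That gene had no steady difference over all cells, and here it was lower at 6 of 6 days, by -0.83 ± 0.15. Gclm (-0.50 ± 0.12) and Txnrd1 (-0.49 ± 0.12) were also lower at 6 of 6 days.

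Srxn1 was lower at 5 of 6 days (-0.59 ± 0.13), the exception being day 1, with 2.84 against 2.36. Slc7a11 (-1.28 ± 0.30) and Hmox1 (-0.80 ± 0.34) were each lower at 5 of 6 days but were counted on as few as 1 UMI in a library of these cells. Nfe2l2 stood at 4.27, 4.40, 4.76, 3.96, 3.69 and 4.24 and 2.71 in control and at 8.19, 7.08, 6.79, 5.58 and 5.83, 4.81, and 3.61 and 3.27 with KPT-330. It was higher at 5 of 6 days, by 0.45 ± 0.12, and its libraries interleaved at day 6. With total-UMI scaling 9 of 10 differences were again negative, and the difference of Nfe2l2 was 0.38. Early enterocyte-like cells could be compared at 2 days only, and at both of them Cbr3, Akr1b8, Nqo1, Gclc, Gclm, Txnrd1 and Slc7a11 were lower. Nfe2l2 and, unlike in enterocyte-like cells, Hmox1 were higher at both days, and Srxn1 was lower at 1 day and higher at the other.

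**Figure D3:**
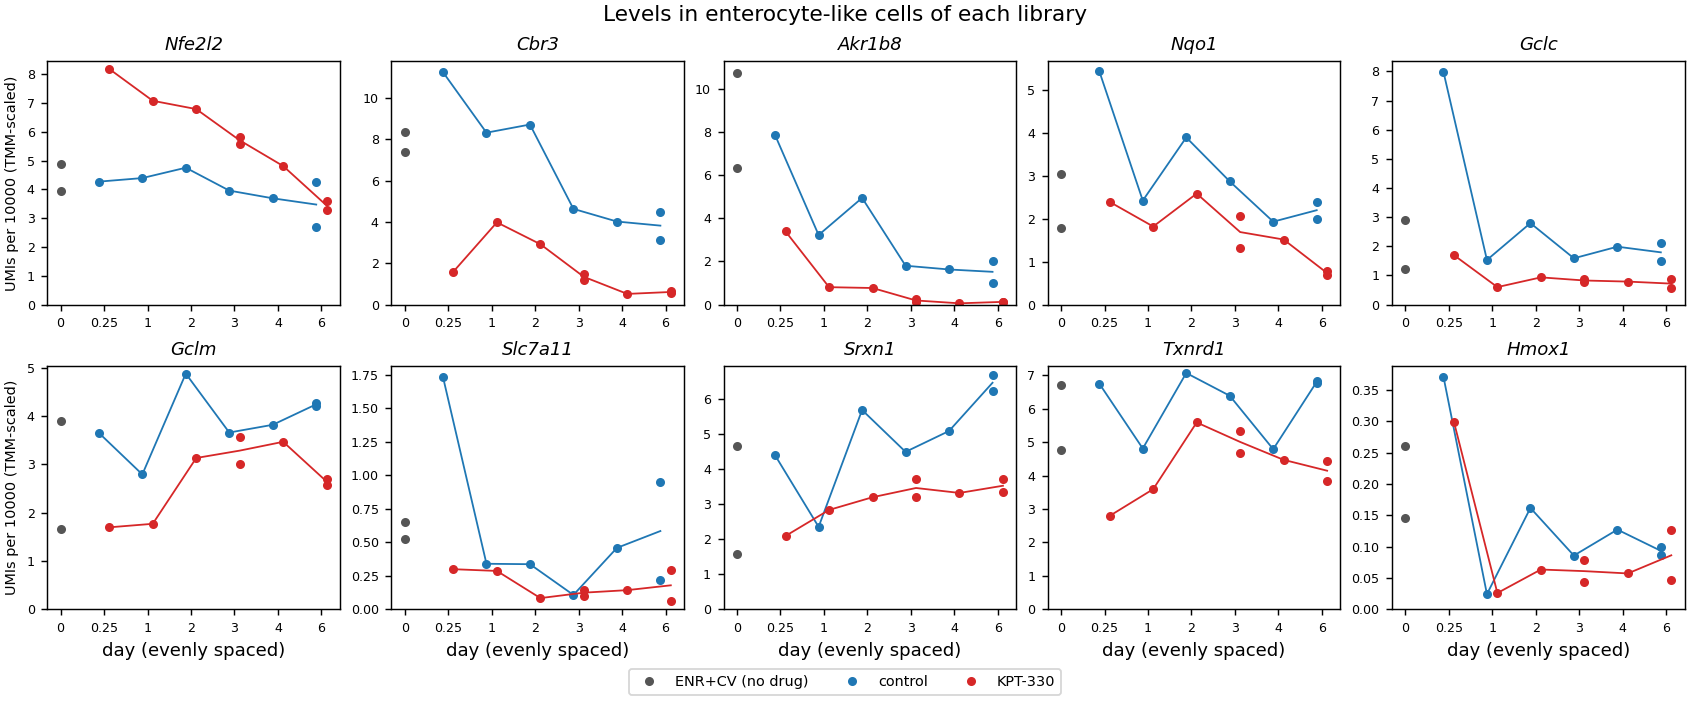
Level of each gene (y axis, UMIs per 10000, TMM-scaled) by day (x axis, evenly spaced) in enterocyte-like cells of each library. Points are libraries (grey, ENR+CV; blue, control; red, KPT-330) and lines join the means of each day. Cbr3, Akr1b8 and Gclc with KPT-330 lie below control at every day, and Nfe2l2 lies above it up to day 4.

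Enterocyte-like cells fell into 3 clusters that the conditions filled unevenly. The cluster led by Apoa1 held 405 control and 1074 KPT-330 cells, that led by Fabp1 held 332 and 541, and that led by Mbl2 held 2 and 136. Within the Apoa1 cluster Cbr3 differed by -2.03 ± 0.19, Akr1b8 by -4.00 ± 0.24, Gclc by -1.29 ± 0.17 and Nfe2l2 by 0.34 ± 0.12. Within the Fabp1 cluster the values were -1.56 ± 0.17, -1.96 ± 0.18, -1.26 ± 0.18 and 0.61 ± 0.15. The differences therefore had the same sign in both clusters, although for Akr1b8 they were not of the same size.

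In the 8 other cell types with enough cells, 5 genes (Nfe2l2, Gclc, Gclm, Txnrd1 and Srxn1) passed the filter on low counts everywhere and the rest in only some types. Counting enterocyte-like cells, Nfe2l2 had a positive difference with TMM scaling in 9 of 9 types. The values ran from 0.02 ± 0.10 in Paneth-like to 0.60 ± 0.17 in early secretory-like cells. By day it was higher at 3 of 3 days in early secretory-like and early Paneth-like cells. In goblet-like and stem II-like cells it was higher at 2 of 3 days, and in enteroendocrine-like cells at 3 of 5. Total-UMI scaling was not run within the 8 other types. Cbr3 passed in 5 types in all and was negative in each: -1.13 ± 0.23 in stem II-like, -1.40 ± 0.27 in stem III-like and -1.17 ± 0.43 in enteroendocrine-like cells, but -0.07 ± 0.44 in stem I-like cells. In stem III-like cells the value was -0.87 ± 0.34 without day 0.25. Gclc ranged from -0.72 ± 0.30 in goblet-like to 0.28 ± 0.19 in enteroendocrine-like cells, and Txnrd1 from -0.16 ± 0.13 in stem II-like to 0.18 ± 0.12 in stem I-like cells.

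**Figure D4:**
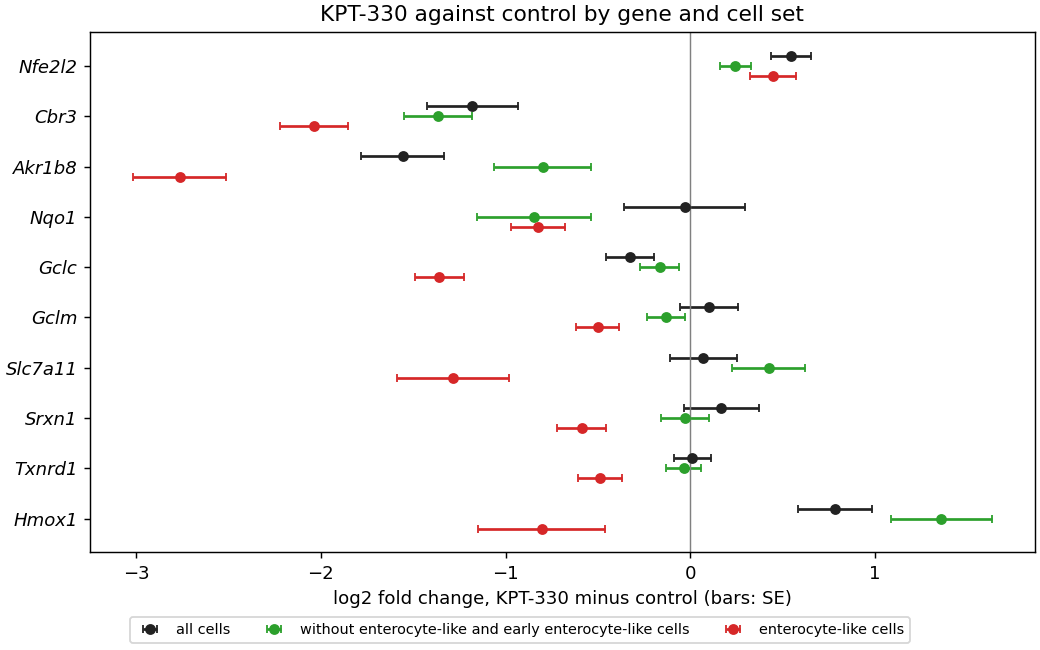
Difference between KPT-330 and control (x axis, log2 fold change; bars, SE) for each gene over all cells (black), without enterocyte-like and early enterocyte-like cells (green) and within enterocyte-like cells (red). Within enterocyte-like cells the 9 target genes lie below 0 and Nfe2l2 at 0.45, while over all cells 5 of the 9 target genes lie within 0.2 of 0.

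The gap between enterocyte-like and other cells of the same libraries was fitted directly, with a term for each library, an analysis added after the data were seen. The other cells are a mix of types whose shares differed between conditions. The difference in KPT-330 effect (enterocyte-like minus other cells, log2) was -2.49 ± 0.47 for Hmox1, -1.84 ± 0.36 for Slc7a11, -1.59 ± 0.33 for Akr1b8, -1.20 ± 0.14 for Gclc and -0.54 ± 0.19 for Cbr3. It was -0.58 ± 0.15 for Srxn1, -0.43 ± 0.12 for Txnrd1 and -0.36 ± 0.12 for Gclm, and that of Nfe2l2 was 0.25 ± 0.13. For Nqo1 it was -0.0031 with edgeR and -0.18 ± 0.40 with DESeq2. Of 78 other pathway genes, 13 had a lower and 3 a higher KPT-330 effect in enterocyte-like cells (edgeR quasi-likelihood test, Benjamini-Hochberg adjusted p under 0.05), against 2.37% lower and 1.41% higher of 12348 genes tested. Without day 2 the total was 10 in place of 16. The genes with the smallest p among the lower were Osgin1, an oxidative stress-induced growth inhibitor (-1.50 ± 0.16), the glutathione peroxidase gene Gpx2 (-1.33 ± 0.16) and the small MAF gene Mafk (-1.14 ± 0.14).

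The other pathway genes were tested in enterocyte-like cells. With KPT-330, 27 of 76 (35.5%) fell and 3 (3.95%) rose, where 1.93% of 8670 genes fell and 1.45% rose, and the median difference was -0.343 on the log2 scale against -0.002 for all genes tested. The counts were 27 and 3 with DESeq2 size factors and 28 and 3 with total-UMI scaling. Of the 27 genes that fell here, 5 also fell over all cells, none rose and 22 passed the threshold in neither direction. Within the Apoa1 cluster 22 of 76 fell and 3 rose, and within the Fabp1 cluster 7 of 73 fell and 1 rose, with 1.57% and 0.837% of all genes falling.

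Glutathione transferases, which couple glutathione to electrophiles, fell in 7 of 13 cases and rose in none, led by Gsta3 (-2.01 ± 0.17, adjusted p = 5e-07), while Gsta1 stood at -0.21 ± 0.16. The enzymes of NADPH supply fell in 5 of 6 cases, among them the glucose-6-phosphate dehydrogenase gene G6pdx (-0.46 ± 0.12, adjusted p = 0.047). Of the 8 genes of glutathione synthesis, recycling and peroxidases, Gpx2 (-1.45 ± 0.14, adjusted p = 1.1e-06) and the glutathione reductase gene Gsr (-0.81 ± 0.13, adjusted p = 0.00091) fell, and Slc3a2, the heavy chain that partners Slc7a11 and other amino acid transporters, rose (0.67 ± 0.13, adjusted p = 0.0051). Carbonyl, aldehyde and quinone enzymes fell in 5 of 14 cases, including Cbr1, the neighbour and relative of Cbr3 (-0.60 ± 0.12, adjusted p = 0.0054), and 1 rose, the hydroxysteroid dehydrogenase gene Akr1c14 (1.37 ± 0.28, adjusted p = 0.0064).

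Among other induced genes 4 of 6 fell, with the carboxylesterase gene Ces1g furthest (-3.54 ± 0.31, adjusted p = 5e-07), and conjugation and export genes fell in 3 of 8 cases. By contrast, none of the 9 sensor and partner proteins passed the threshold, Keap1 standing at -0.15 ± 0.15. In the thioredoxin system none of 6 fell, Txn1 stood at 0.13 ± 0.14, and Txnip, which encodes an inhibitor of thioredoxin, rose (1.13 ± 0.19, adjusted p = 0.0015). Of 6 haem and iron genes 1 fell, and the ferritin heavy chain gene Fth1 stood at -0.26 ± 0.14. These adjusted p-values are from edgeR's quasi-likelihood test over all genes.

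**Figure D5:**
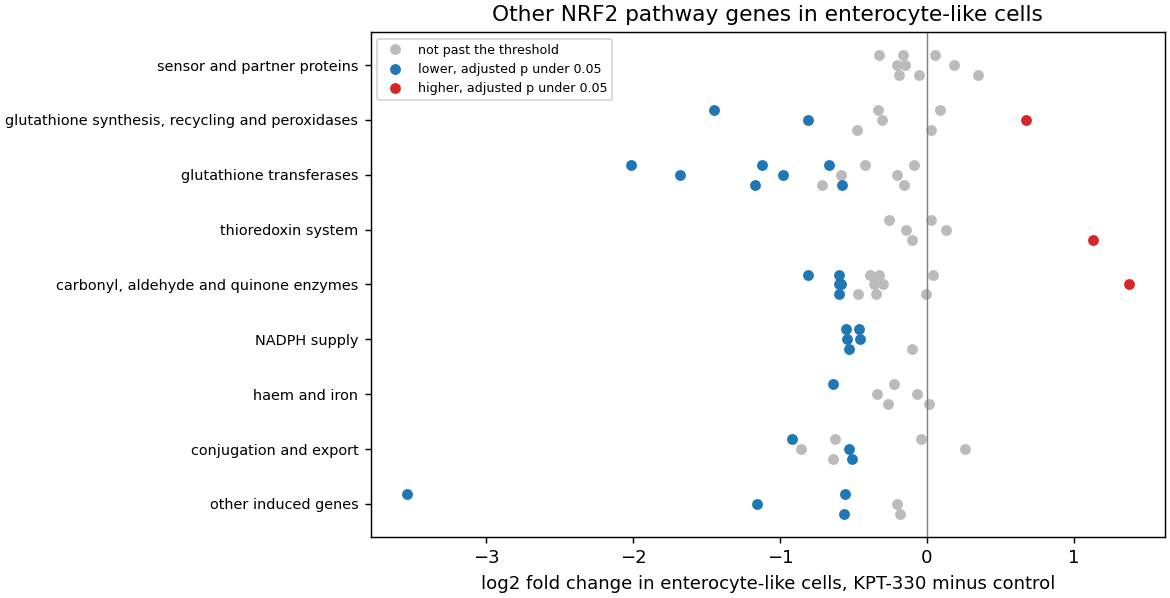
Difference between KPT-330 and control in enterocyte-like cells (x axis, log2 fold change) for 76 other genes of the pathway, 1 point each, by group (y axis, with vertical scatter for legibility). Blue and red mark genes that fell (27) or rose (3) at an adjusted p under 0.05. Transferases and NADPH enzymes lie mostly below 0, while sensor and partner proteins hold none past the threshold.

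Over all cells 57 of 78 pathway genes passed the threshold in neither direction. There 15 of 78 rose (19.2%) and 6 fell (7.69%), where 28.6% of 12812 genes were called, 14.4% higher and 14.2% lower. Scaled to total UMIs, 6 rose and 19 fell, so the balance of the pathway over all cells turned with the scaling, and without day 3 the total was 11 in place of 21. Akr1c14 (1.49 ± 0.21), the small MAF gene Maff (1.08 ± 0.16) and Slc3a2 (0.98 ± 0.15) rose, and Ces1g (-2.05 ± 0.34), Gsta3 (-1.04 ± 0.28), the exporter gene Abcc4 (-0.47 ± 0.13) and Gpx2 (-0.30 ± 0.09) fell, under both scalings. Txn1 rose (0.58 ± 0.14) with TMM but was not called with total UMIs. Fth1 (0.45 ± 0.19), Gsta1 (0.61 ± 0.34), Gsr (-0.16 ± 0.15), Keap1 (0.02 ± 0.10), G6pdx (0.01 ± 0.09) and Cbr1 (0.01 ± 0.18) did not pass the threshold.

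Without enterocyte-like and early enterocyte-like cells, 10 of 74 genes rose and 10 fell (13.5% each), where 13.4% of 12070 genes rose and 13.2% fell, which is close to the background. With total-UMI scaling 4 rose and 37 fell. The mix of the remaining types differed between conditions here as well. Maff (1.37 ± 0.16), Mafk (0.96 ± 0.12) and Slc3a2 (0.92 ± 0.13) rose, while the microsomal glutathione transferase genes Mgst2 (-1.11 ± 0.18) and Mgst1 (-0.71 ± 0.15), Gstm1 (-0.50 ± 0.10) and Cbr1 (-0.30 ± 0.10) fell, under both scalings. Txn1 rose (0.35 ± 0.08) with TMM only. Gsr stood at -0.32 ± 0.12, Gpx2 at -0.11 ± 0.10, Gsta1 at 0.32 ± 0.35, Fth1 at 0.04 ± 0.08, Keap1 at -0.04 ± 0.09 and G6pdx at -0.01 ± 0.09, none past the threshold. In the 8 other types fitted singly, 16 pairs of pathway gene and type passed it, where 1338 of 67689 pairs over all genes did (1.98%). In Paneth-like cells 5 of 70 pathway genes rose and 1 fell (222 and 180 of all 10048 genes). In stem I-like cells 3 of 68 rose and 3 fell (233 and 131 of 9260). In early Paneth-like cells 2 of 56 rose and 1 fell (84 and 41 of 7670), and in goblet-like cells 1 of 51 rose (52 of 5848). None passed of 70 in stem II-like, 70 in stem III-like, 60 in early secretory-like and 67 in enteroendocrine-like cells.

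The time course without drug asked how the genes move as organoids leave the stem-enriched state, in libraries without KPT-330. From early (days 0, 0.25 and 1) to late (days 3, 4 and 6) untreated libraries, 7 of the 10 genes fell (70%) and none rose, where 24.6% of 13370 genes fell and 22.6% rose (edgeR quasi-likelihood test, 9 libraries). The 10 genes were chosen with earlier results of these data known, so the 70% is a description and not an independent comparison with that background. Medium and time change together, since day 0 is ENR+CV. Akr1b8 stood at 0.834 and 0.926 in the ENR+CV libraries and at 0.625 and 0.578 in the controls of days 0.25 and 1. It was highest at day 2 (1.19), then stood at 0.217 at day 3, 0.105 at day 4, and 0.205 and 0.0928 at day 6. The late-minus-early difference was -2.23 ± 0.27 on the log2 scale (adjusted p = 6.9e-05). Day 2 has its own level in this fit, so the contrast does not show a rise at that day. Nqo1 (0.869) and Gclc (0.995) also stood higher at day 2 than at any other control day. Cbr3 fell from 1.72 and 1.55 at day 0 by 2.17 ± 0.26 (adjusted p = 6.4e-05), with its highest library, 2.08, at day 2.

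Slc7a11 stood at 0.483 and 0.416 at day 0, 0.555 at day 0.25, 0.170 at day 1, 0.0392 at day 3, and 0.147 and 0.158 at day 6, with every library from day 1 on below those before it. The late-minus-early difference of this cystine importer was -1.93 ± 0.41 (adjusted p = 0.0023). Nfe2l2 (-0.75 ± 0.13, adjusted p = 0.00069), Txnrd1 (-0.58 ± 0.14, adjusted p = 0.0048), Nqo1 (-1.09 ± 0.33, adjusted p = 0.017) and Gclc (-0.55 ± 0.16, adjusted p = 0.014) fell as well, and without day 0 the adjusted p of Gclc was 0.055. With day as a linear term the adjusted p was 0.080 for Nqo1, 0.059 for Gclc and 0.051 for Slc7a11, so the calls of these 3 genes depend on how time enters the fit. Gclm (-0.11 ± 0.15), Srxn1 (0.24 ± 0.19) and Hmox1 (0.32 ± 0.41) did not pass the threshold. The share of enterocyte-like and early enterocyte-like cells in these 9 libraries moved from 9.83% and 17.0% at day 0 through 27.8% at day 2 to 2.02% and 7.10% at day 6, and its part in these changes was not tested.

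Of 78 other pathway genes, 33 fell (42.3%) and 10 rose (12.8%) over the same course, where 24.6% of 13370 genes fell and 22.6% rose. The median was -0.565 on the log2 scale against -0.004 for all genes. The enzymes of NADPH supply fell in 6 of 6 cases, including the phosphogluconate dehydrogenase gene Pgd (-1.34 ± 0.16, adjusted p = 6.9e-05) and G6pdx (-0.83 ± 0.14). Carbonyl, aldehyde and quinone enzymes fell in 8 of 15, among them Aldh9a1 (-1.33 ± 0.16), Akr7a5 (-0.997 ± 0.12) and Cbr1 (-1.09 ± 0.14), and 5 of 8 glutathione genes fell, including Gsr (-1.51 ± 0.21) and Gpx2 (-1.26 ± 0.17). Txn1 also fell (-1.004 ± 0.14). Sensor and partner proteins went the other way, with 4 of 9 rising and none falling: Maff (1.90 ± 0.28), the autophagy adaptor gene Sqstm1 (1.43 ± 0.20) and Mafk (1.11 ± 0.19) were the 3 with the smallest p, and Fth1 of the haem and iron group rose as well (0.74 ± 0.24). Keap1 (0.04 ± 0.15) and Gsta1 (0.17 ± 0.35) did not pass the threshold.

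Whether the KPT-330 difference itself changed between days 0.25 to 2 and days 3 to 6 was fitted as an interaction over all cells, and for the 10 genes it is given as a description. No gene of 12812 passed with edgeR (0%), 1333 had an unadjusted p under 0.05, and DESeq2 called 56. Slc7a11 had the largest late-minus-early difference in effect among the 10 genes, 1.05 ± 0.24 on the log2 scale: KPT-330 libraries lay below control at days 0.25, 1 and 2 (0.394, 0.153 and 0.0595 against 0.555, 0.170 and 0.108) and above it at days 3 and 4, while at day 6 the direction turned with the scaling. The value was 0.71 ± 0.26 for Gclm and 0.55 ± 0.22 for Gclc.

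Cbr3 and Nqo1 were compared with all other genes over the 17 libraries, as a description of libraries that share their content of enterocyte-like cells. The genes whose levels ranked most like those of Nqo1 were Slc35d1, Snx9, Ugdh, Idh1 and Ugt2b36 (Spearman rho 0.953 to 0.929). Those most like Cbr3 were Ugp2, Ces1e, Inpp5a, Ndufaf3 and Htatip2 (0.936 to 0.922).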

How the data were processed

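The authors demultiplexed reads with bcl2fastq, aligned them to mm10 with STAR, used the Drop-seq pipeline to collapse them to UMIs per cell barcode, and removed doublets. The deposited values are UMI counts, without normalization. The 10 genes, the pathway list of 79 genes (78 with counts) and the tests were chosen with earlier results of these data known.

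Cells named in the merged table were clustered on 3000 variable genes less 51 listed genes (SCTransform 0.4.2, Seurat 5.3.0, R 4.3.3, 9 components, 20 neighbours, resolution 0.45) and named from 98 markers. Counts were summed per library, or per library and type with at least 20 cells and 3 days, and tested with edgeR 4.0.16 (TMM, filterByExpr, quasi-likelihood, a day term, or a period term for the untreated time course; Benjamini-Hochberg over all genes, threshold 0.05); DESeq2 1.42.0 was an alternative. SEs come from the F statistic. Self-tests on simulated data were run. Genes named are the 10, the 3 pathway genes with the smallest p per direction, and 8 fixed genes. With 1 library at most time points, precision is limited by the number of libraries.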

Additional observations from a re-analysis of the deposited data

Results flagged for a closer look

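The KPT-330 effect differed between enterocyte-like cells and the other cells of the same libraries for 7 named pathway genes, by an edgeR test of the difference itself, with adjusted p over 12348 genes. It was lower in enterocyte-like cells for Osgin1 (-1.50 ± 0.16 on the log2 scale, adjusted p = 1.7e-06), Gpx2 (-1.33 ± 0.16, adjusted p = 3.7e-06), Mafk (-1.14 ± 0.14, adjusted p = 1.1e-05) and the NADPH enzyme gene G6pdx (-0.47 ± 0.13, adjusted p = 0.040). It was higher for Akr1c14 (1.66 ± 0.24, adjusted p = 6.1e-05), Txnip (1.29 ± 0.19, adjusted p = 8.3e-05) and the glutaredoxin gene Glrx (0.59 ± 0.16, adjusted p = 0.032). The difference did not pass the threshold for Gsr (-0.50 ± 0.17), Cbr1 (-0.28 ± 0.14), Fth1 (-0.26 ± 0.19), Gsta1 (-0.46 ± 0.34), Txn1 (-0.19 ± 0.15) or Keap1 (-0.10 ± 0.14).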

How the results depend on the processing

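Total-UMI scaling turned the balance of pathway genes over all cells from 15 higher and 6 lower to 6 and 19, changed the sign of the differences of Gclm, Slc7a11, Srxn1 and Txnrd1 over all cells, and took that of Nfe2l2 without enterocyte-like cells from 0.24 to -0.0023. Across the alternatives, 93 of 103 recomputed counts of pathway genes stayed within 1.5 times the main count. Over all cells, 21 pathway genes passed in the main analysis and 11 without day 3 (14 to 26 when a single library was left out), and all genes called went from 3661 to 2092 without day 3 and 2420 without day 4. Without enterocyte-like cells, 20 passed and 41 did with total-UMI scaling (19 to 21 with a library left out), and the 3214 genes called became 2054 without day 3 and 1722 without day 6. Within cell types 46 gene and type pairs passed, 29 without day 2 and 30 without day 4 (38 to 65), and the 1631 calls over all genes became 812, 1053 and 808 without days 2, 3 and 4 and 2642 without a filter on low counts. The untreated time course gave 43, and 40 to 44 with a library left out. With day as a linear term, Nqo1 (adjusted p = 0.080), Gclc (0.059) and Slc7a11 (0.051) no longer passed there. For the change of the KPT-330 effect with time, 0 pathway genes passed, 1 with DESeq2, 7 without a filter and 7 without day 6 (0 to 1 with a library left out), while all genes called were 56, 349 and 164, and 16 without replicate 1 of KPT-330 at day 3. For the difference between enterocyte-like and other cells, 16 passed and 10 without day 2 (12 to 21), and the 467 calls over all genes became 233 with DESeq2 and 289, 290 and 271 without days 2, 3 and 4. The cause of these changes was not tested.

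The replicate numbers 1 and 2 are shared between conditions at day 6, where the difference of replicate 1 and 2 correlated at 0.429 over genes between control and KPT-330. With 1 such set the numbers do not establish a pairing. In the untreated time course the controls of days 0.25 and 1 are replicate 1 and those of days 3 and 4 replicate 2, so block and period overlap in part. With the replicate number as a block, pathway calls were 21 over all cells, 24 without enterocyte-like cells, 71 within cell types (2652 over all genes), 37 in the time course, where Nqo1 had an adjusted p of 0.075, and 0 for the change with time. Sparse genes limit what can be read: Hmox1 had as few as 11 UMIs in a library and Akr1b8 5.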

Other observations

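Keap1, whose protein holds NRF2 low, had a KPT-330 effect that was 0.54 ± 0.15 higher on the log2 scale at days 3 to 6 than at days 0.25 to 2 (edgeR adjusted p = 0.28), and its level at day 3 was 0.951 and 0.958 UMIs per 10000 in the KPT-330 libraries against 0.688 in control. At day 4 its mean was 0.743 with KPT-330 and 0.762 in control, and at day 6 it was 0.784 and 0.682. Akr1b7, a neighbour and close relative of Akr1b8 on chromosome 6, stood at 1.72 and 1.99 UMIs per 10000 in the KPT-330 libraries of day 3 and at 0.478 in the control library, and at 0.638 against 0.190 at day 4, while Akr1b8 lay below control at both days. With KPT-330 and in control, Akr1b7 was at 0.0719 and 0.0910 at day 0.25 and at 0.209 and 0.202 at day 1. The values were 0.772 and 0.767 at day 2 and 0.222 and 0.244 at day 6. Within enterocyte-like cells Akr1b7 differed by -0.36 on the log2 scale and did not pass the threshold. The part of the enterocyte-like share, larger with KPT-330 at days 3 and 4, was not tested. How reads of these close relatives were assigned is not stated in the sources used here. Akr1b7 was named after its values were seen.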
